A study of Rattus norvegicus with 6 samples.

Results

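The genes described here are 10 factors through which low oxygen and vascular growth signals act in tissue: the hypoxia-inducible transcription factor genes Hif1a and Epas1, the vascular endothelial growth factor family genes Vegfa, Vegfb, Vegfc and Pgf, the secreted factor genes Angptl4, Adm and Angpt2, and Serpinf1, which encodes the vessel growth inhibitor PEDF. The list names them by symbol, and each was found in 1 entry of the deposited expression table, so that they were 10 of its 34170 genes. The rule would use the highest mean FPKM among entries that share a symbol, which did not arise.

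The data were poly-A RNA sequencing of retina from 6 male Sprague-Dawley rats, an outbred stock. The control group was 3 rats labelled WT that received citrate buffer into the abdomen on 5 days in a row, and the diabetic group was 3 rats that received streptozotocin, which kills the insulin-producing beta cells, by the same route at 60 mg/kg on 5 days after a 12 h fast. Rats with a fasting glucose above 16.7 mmol/L 1 week after the last injection counted as diabetic. Neither the ages nor the time from diabetes to collection of the retinas is given in the sources used here, and body weights were between 103.4 and 110.5 g in the controls and between 100.4 and 104 g in diabetic rats. Each library is labelled with its own body weight, so p-values rest on the spread between animals.

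In cells with enough oxygen, prolyl hydroxylases of the Egln family mark the HIF alpha proteins for breakdown through the VHL ligase. When oxygen falls the alpha subunits, encoded by Hif1a and Epas1, escape this, pair with the subunit encoded by Arnt, and switch on genes such as Vegfa, Angptl4 and Adm. HIF activity is therefore set mostly at the protein level, which RNA abundance does not report. In the retina, Müller glia and other cells release VEGF, which acts on endothelial receptors, makes vessels leak and drives new vessels in proliferative diabetic retinopathy, while PEDF opposes vessel growth.

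The fragments behind the deposited FPKM values, which are scaled to gene length and library size, could be rebuilt. They summed to between 12417686 and 16941864 per control library and between 16277864 and 19115426 per diabetic library. The library size implied by the FPKM differed from these sums. Its ratio to the sum was 1.0058, 0.9738 and 0.9834 in controls 1, 2 and 3, against 1.0385, 1.0406 and 0.9885 in diabetic 1, 2 and 3. The libraries carried the signature of retina: summed FPKM of 6 rod genes was between 32660 and 36660 in the controls and between 27450 and 31830 in diabetic libraries, and that of 9 Müller glia genes between 1602 and 1858 and between 1250 and 1564. Fewer cells of a type and less RNA per cell cannot be told apart in bulk tissue. Some libraries stood apart in genes of neighbouring tissue. The summed FPKM of 5 lens genes was 340.7 in control 3 and between 7.77 and 42.3 in the other 5 libraries, and that of 5 genes of cornea, iris and ciliary body was 14.5 in control 2 and 15.0 in diabetic 1 against 5.20 to 7.44 in the others. The 8 pigment epithelium genes summed to 96.0 in diabetic 1 and to 41.3 and 43.7 in diabetic 2 and 3, with 46.7 to 96.3 in control. Most of each sum was 1 gene, Ttr, at 74.3 in diabetic 1, 29.8 and 32.2 in diabetic 2 and 3, and 30.4 to 73.0 in control. The 7 endothelial genes found in the table summed to between 9.73 and 13.8 FPKM in the controls and between 8.46 and 10.7 in diabetic retina. Most of each sum was Esam, at 7.12 to 8.97 FPKM in control and 5.745 to 6.913 FPKM in diabetic retina. Cldn5, which marks endothelial tight junctions, was listed at 0 in all 6 libraries. Such a 0 is not read here as absence of the RNA, since Pnpla2, a lipase gene active in most tissues, is listed at 0 throughout as well. The 7 pericyte and smooth muscle genes summed to 11.1 to 16.9 in control and 8.29 to 9.55 in diabetic retina. Those sums did not overlap, and neither did the rod and Müller glia sums. Rgs5 weighed most, at 5.16 to 9.92 FPKM in control and 3.43 to 4.26 in diabetic retina. Like Rgs5, Pdgfrb, Cspg4, Acta2 and Myh11 were lower in every diabetic library. Kcnj8, with a log2 difference of 0.26, and Notch3 overlapped. The part of these differences in the values of the 10 genes was not tested.

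The 10 genes covered a wide range of abundance. Hif1a was the most abundant, with a mean of 151.0 FPKM over the 6 libraries, above 97.5% of the genes tested, followed by Vegfa at 85.8 and Epas1 at 64.7 FPKM. Vegfb was at 8.82 FPKM, the median of the tested genes, and Angpt2 at 3.05, Serpinf1 at 1.41, Pgf at 0.666 and Angptl4 at 0.607 FPKM. Vegfc at 0.327 and Adm at 0.232 FPKM were below the mean of 0.5 FPKM required for testing, so 8 of the 10 genes were tested. Within each group, neighbours in this order from Hif1a down to Pgf did not overlap, whereas Pgf overlapped Angptl4, Angptl4 overlapped Vegfc, and Vegfc overlapped Adm.

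**Figure D1:**
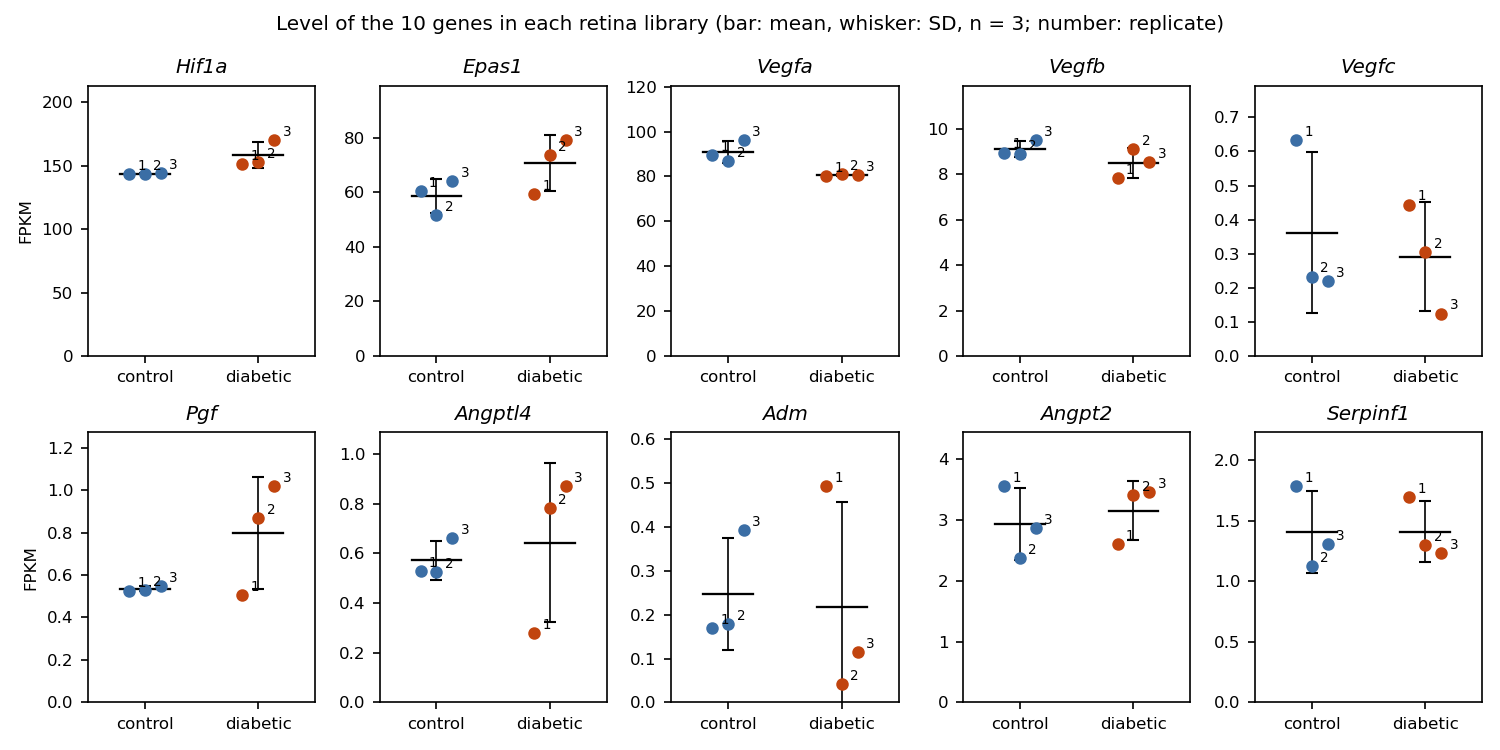
FPKM of each of the 10 genes in the 3 control (blue) and 3 diabetic (orange) libraries, with the mean as a bar and the SD as a whisker, each panel on its own linear axis from 0 (the lower whisker of diabetic Adm is cut there). Vegfa lies lower and Hif1a higher in every diabetic library, and in the other 8 genes the groups overlap.

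The comparison of diabetic with control retina asks whether these factors differ in a streptozotocin model. At a threshold of 0.05 on the Benjamini-Hochberg adjusted p, 0 of the 8 tested genes passed over all 16363 genes tested with limma, where 0.00% of all genes passed. At an unadjusted p below 0.05 there was 1 of 8, Vegfa, or 12.5%, against 19.9% of all genes tested. The groups did not overlap in 2 of 8 genes, or 25.0%, against 26.2% of all genes. By direction, 9.15% of all genes were higher and 10.7% lower in diabetic retina at that unadjusted p, and 12.7% were higher and 13.6% lower without overlap. The share of members that differed was thus near or under that of all genes. The median log2 difference of the 8 was 0.07, with 6 positive and 2 negative, against 0.00 over all genes. At an unadjusted p below 0.05 all genes split into 1498 higher and 1757 lower, which became 3009 and 692 after rescaling to TPM. That rescaling moves the median of all genes to 0.13, so values with TPM are also given relative to this median. Voom on the rebuilt fragments gave 2210 higher and 1203 lower at that p, with a median of 0.05.

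Hif1a, the oxygen-regulated subunit found in most cell types, was at 143.3, 143.5 and 144.1 FPKM in controls 1, 2 and 3, against 151.5, 153.0 and 170.3 FPKM in diabetic 1, 2 and 3. All 3 diabetic libraries were above all 3 controls, and diabetic 3 was the highest. Its means were 143.6 ± 0.426 and 158.3 ± 10.4 FPKM (SD, n = 3 each). The log2 difference was 0.14 with a standard error of 0.07 and a 95% interval from -0.04 to 0.31 (adjusted p = 0.351, limma). The value moved with the scaling, with gene length and with 1 library. It was 0.08 without diabetic 3, 0.27 with TPM (0.14 relative to the median) and 0.33 after quantile normalization. After removal of each library's length trend it was 0.06 and the groups overlapped. The file places Hif1a (ENSRNOG00000008292) at chr6:96810907-96856052, plus strand, on coordinates of an unstated build.

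Epas1 encodes HIF-2 alpha, the sister subunit known from endothelium and other selected cell types. It was at 60.3, 51.7 and 64.0 FPKM in controls 1, 2 and 3, against 59.5, 73.7 and 79.2 FPKM in diabetic 1, 2 and 3. Diabetic 2 and 3 were above every control, while diabetic 1 was below control 1 and 3, so the groups overlapped. The means were 58.7 ± 6.30 and 70.8 ± 10.2 FPKM (SD, n = 3 each), with a log2 difference of 0.26, a standard error of 0.13 and an interval from -0.04 to 0.57 (adjusted p = 0.307, limma). It was 0.16 with the length trend removed, 0.40 with TPM (0.27 relative to the median), 0.18 without control 2 and also without diabetic 3, and 0.38 without diabetic 1. Log2 of Hif1a over Epas1 within a library was 1.29 ± 0.155 in control and 1.16 ± 0.157 in diabetic retina. Their difference of -0.13 was within the spread of the libraries (p = 0.4, exact permutation test, two-sided; 0.6 when adjusted over 3 ratios). Leaving out control 2 gave -0.040, diabetic 2 gave -0.069 and diabetic 1 gave -0.22. The smallest p that 3 against 3 libraries allow is 0.1.

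Arnt, the common partner of the alpha subunits, was at 15.4, 16.1 and 21.4 FPKM in the controls and 20.2, 23.6 and 22.4 FPKM in the diabetic rats, so that control 3 lay within the diabetic range. Its log2 difference was 0.33 (unadjusted p = 0.0494, adjusted p = 0.250, limma). Egln2, 1 of the 3 prolyl hydroxylases, was at 28.3, 33.4 and 30.0 FPKM in the controls and 21.8, 23.0 and 22.8 FPKM in the diabetic rats. Every diabetic library was below every control, with a log2 difference of -0.43 and a standard error of 0.08 (unadjusted p = 0.00142, adjusted p = 0.128, limma). The difference of Egln2 was -0.30 with TPM and -0.39 with the length trend removed. Egln1, the main oxygen sensor of this family, had a log2 difference of -0.07, and Egln3, itself induced by HIF, was at 1.14 ± 0.495 and 0.941 ± 0.154 FPKM (SD, n = 3 each). In all, 9 of 9 genes of HIF partners and oxygen sensors were tested, 3 with a positive and 6 with a negative difference and a median of -0.07. With TPM the median was 0.07 and 7 were positive, but relative to all genes the median was -0.06.

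The HIF complex binds a short core with the letters ACGTG or GCGTG. RefSeq promoter windows of the rat genome GRCr8, from 250 bases before to 50 after a start, were found by symbol for 9 of the 10 genes and not for Angpt2. Both letter groups were searched on both strands. Of 9 genes, 5 held at least 1 core, 2 with ACGTG (Hif1a and Angptl4) and 3 with GCGTG (Vegfb, Pgf and Serpinf1). Among all 33469 windows of 300 bases, 41.6% held either, 19.3% ACGTG and 29.7% GCGTG, so a core is common in such windows. Neither of the 2 windows listed for Vegfa held one, and bases further upstream were not searched for any gene. The 250 bases before the start are shown 5′ to 3′ on the strand of the gene for Hif1a, Vegfa, Angptl4 and Pgf. In the first 2 the groups did not overlap as deposited, and the other 2 are scarce genes that were highest in diabetic 2 and 3. Epas1 was also highest in diabetic 2 and 3, and its window, which is not shown, held no core. Capitals mark the cores, which on the opposite strand read CACGT or CACGC. The sequences lie at chr6:98359648-98359897 on the plus strand, chr9:22452604-22452853 on the plus strand, chr7:15258682-15258931 on the minus strand and chr6:110557748-110557997 on the minus strand of GRCr8.
Hif1a: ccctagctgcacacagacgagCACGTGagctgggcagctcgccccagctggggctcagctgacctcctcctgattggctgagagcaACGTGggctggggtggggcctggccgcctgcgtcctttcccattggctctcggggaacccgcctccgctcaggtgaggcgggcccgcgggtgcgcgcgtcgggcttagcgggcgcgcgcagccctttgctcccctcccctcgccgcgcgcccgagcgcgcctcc
Vegfa: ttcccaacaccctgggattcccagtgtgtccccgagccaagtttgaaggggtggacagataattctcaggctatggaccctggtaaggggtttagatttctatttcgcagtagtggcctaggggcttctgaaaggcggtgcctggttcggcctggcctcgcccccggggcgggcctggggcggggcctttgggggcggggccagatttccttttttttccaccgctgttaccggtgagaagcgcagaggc
Angptl4: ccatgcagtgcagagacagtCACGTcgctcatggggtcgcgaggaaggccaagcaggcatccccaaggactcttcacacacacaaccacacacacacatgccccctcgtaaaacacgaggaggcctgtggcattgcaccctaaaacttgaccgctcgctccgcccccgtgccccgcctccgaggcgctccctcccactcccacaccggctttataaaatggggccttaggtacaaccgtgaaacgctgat
Pgf: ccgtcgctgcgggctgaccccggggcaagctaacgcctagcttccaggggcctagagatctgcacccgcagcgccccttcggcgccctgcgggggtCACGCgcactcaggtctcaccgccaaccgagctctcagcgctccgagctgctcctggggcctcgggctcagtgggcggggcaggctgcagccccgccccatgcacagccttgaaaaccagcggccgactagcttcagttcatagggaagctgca
In Hif1a the 6 capitals nearest the 5′ end hold the core on both strands, so they count as 2 overlapping matches, 229 and 228 bases before the start, and the third match begins 164 bases before it. The match in Angptl4 begins 230 and that in Pgf 154 bases before the start. A match is a description of letters, and binding was not measured.

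Vegfa, the main growth and permeability factor of the family, was at 89.6, 86.7 and 96.3 FPKM in control 1, 2 and 3. In diabetic 1, 2 and 3 it was at 80.2, 81.2 and 80.7 FPKM. As deposited, all diabetic libraries lay below all controls and within 1.01-fold of each other. The log2 difference was -0.17 with a standard error of 0.07 and an interval from -0.33 to -0.01 (unadjusted p = 0.0437, adjusted p = 0.239, limma). Under quantile normalization it was -0.024, so the size of the Vegfa difference rests on the scaling between libraries. TPM gave -0.033, or -0.16 relative to the median of all genes. Voom on the fragments gave -0.12 (unadjusted p = 0.170), where the median of all genes was 0.05. With TPM, under quantile normalization and by voom the groups overlapped in Vegfa. The difference was -0.23 with the length trend removed. When 1 library was left out, it was between -0.20 (without control 2) and -0.13 (without control 3, the highest library). The file places Vegfa (ENSRNOG00000019598) at chr9:17340341-17355681, plus strand, in that build. The values sum over the isoforms of the gene, which were not separated.

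The summed Müller glia genes were also lower in every diabetic library, a sum in which 2 genes weigh most: Apoe, a lipid carrier gene that other glia also express, at 461.8 and 268.8 FPKM on average, and the glutamine synthetase gene Glul at 720.9 and 601.5 FPKM. All 9 genes of that list were in the table and none was at 0 throughout. Log2 differences were -0.78 for Apoe, -0.38 for the retinoid-binding protein gene Rlbp1 and -0.28 for Glul. They were positive for the other 6, between 0.04 for Vim and 0.17 for Sox9. The median log2 deviation of the 9 genes from their control means overlapped between the groups, from -0.15 to 0.11 in control and from -0.14 to 0.01 in diabetic libraries. The part of glial RNA in the Vegfa difference was not tested.

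Vegfb, a family member that binds only the receptor FLT1 and coreceptors, was at 8.97, 8.89 and 9.52 FPKM in the controls and 7.82, 9.12 and 8.56 FPKM in the diabetic rats. Diabetic 2 lay among the controls and the log2 difference of -0.10 was within the spread (adjusted p = 0.610, limma). It was 0.032 with TPM (-0.098 relative to the median), -0.15 without diabetic 2 and -0.043 without diabetic 1. Vegfc, which acts mainly on the lymphatic receptor FLT4, was scarce. It was at 0.634, 0.233 and 0.220 FPKM in the controls and 0.444, 0.305 and 0.124 FPKM in the diabetic rats, or 5 to 23 fragments per library. Control 1 was the highest and diabetic 3 the lowest, and the groups overlapped throughout. Vegfc overlaps a microRNA gene on the opposite strand, listed at 0.103 FPKM.

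Pgf encodes placental growth factor, a ligand of FLT1. It was at 0.526, 0.530 and 0.550 FPKM in controls 1, 2 and 3, against 0.505, 0.870 and 1.02 FPKM in diabetic 1, 2 and 3. Diabetic 2 and 3 exceeded every control and diabetic 1 was below them all. These values rest on 10 to 14 fragments per control library and 15, 23 and 30 in diabetic 1, 2 and 3. The exact 95% Poisson intervals, which cover counting error only, ran from 0.254 to 0.974 FPKM in control 2 and from 0.686 to 1.45 FPKM in diabetic 3. The log2 difference was 0.30 on the log2(FPKM + 0.5) scale, where a low gene's change is understated, with an interval from -0.27 to 0.88 (adjusted p = 0.526, limma). It was 0.48 without diabetic 1 (adjusted p = 0.370) and 0.18 without diabetic 3, 0.53 by voom on the fragments and 0.48 with TPM (0.35 relative to the median).

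Angptl4 encodes a secreted inhibitor of lipoprotein lipase that HIF and fatty acid receptors induce. It was at 0.528, 0.526 and 0.661 FPKM in controls 1, 2 and 3, against 0.278, 0.782 and 0.869 FPKM in diabetic 1, 2 and 3. The lowest and the 2 highest of the 6 libraries were diabetic, a 3.12-fold range within that group against 1.26-fold in control. Diabetic 1 had 10 fragments (0.133 to 0.512 FPKM, 95% Poisson interval) and diabetic 3 had 31 (0.590 to 1.23 FPKM), so those intervals did not overlap. The log2 difference was 0.05 with a standard error of 0.29 (adjusted p = 0.937, limma). It was 0.31 without diabetic 1 and -0.10 without diabetic 3.

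Adm encodes adrenomedullin, a peptide that widens vessels and is induced by low oxygen. It was at 0.169, 0.179 and 0.394 FPKM in controls 1, 2 and 3, against 0.492, 0.0426 and 0.114 FPKM in diabetic 1, 2 and 3. With 4, 3 and 7 fragments in control and 13, 1 and 3 in diabetic libraries, all but diabetic 1 lie near the floor of 3 fragments, and no difference was detectable with these counts and this spread. Diabetic 1 was the highest library for Adm and the lowest for Angptl4.

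Angpt2, a vessel-destabilizing ligand of the receptor TEK, was at 3.56, 2.37 and 2.87 FPKM in control 1, 2 and 3. In diabetic 1, 2 and 3 it was at 2.60, 3.41 and 3.47 FPKM, all inside the control range. The log2 difference was 0.10 with an interval from -0.33 to 0.53 (adjusted p = 0.802, limma). It was 0.21 without diabetic 1 and -0.025 without control 2. Angpt2 overlaps Mcph1 on the opposite strand, at 0.754 FPKM, and the labels name no strand marking, so some reads can belong to either gene. Angpt1, the stabilizing ligand of the same receptor, was at 0.506 ± 0.206 and 0.422 ± 0.117 FPKM (SD, n = 3 each) and was not tested. Log2 of Angpt2 over Angpt1, with 0.5 added to the FPKM of both genes, was 1.78 ± 0.504 in control and 1.99 ± 0.377 in diabetic retina. The added 0.5 is about as large as Angpt1 itself, which had 9 to 20 fragments per library, so this ratio is compressed. The difference was 0.21 (p = 0.6, exact permutation test, two-sided, and 0.6 adjusted over 3 ratios), or 0.30 with 0.1 added instead. It was -0.073 without control 2, 0.41 without control 1, 0.43 without diabetic 1, 0.13 without diabetic 2 and 0.082 without diabetic 3.

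Serpinf1, the gene of PEDF, which pigment epithelium and Müller glia secrete, was at 1.78, 1.12 and 1.31 FPKM in the controls and 1.70, 1.30 and 1.23 FPKM in the diabetic rats. The 2 highest libraries, control 1 and diabetic 1, were also the 2 with the highest summed pigment epithelium genes, at 96.3 and 96.0 FPKM. However, control 2 at 83.5 FPKM had the lowest Serpinf1. Those sums are mostly Ttr, at 73.0, 61.2 and 30.4 FPKM in the controls and 74.3, 29.8 and 32.2 FPKM in the diabetic rats. Rpe65 was at 3.881, 3.929 and 3.815 FPKM in the controls and 7.096, 3.382 and 2.44 FPKM in the diabetic rats. The log2 difference of Serpinf1 was 0.01 with an interval from -0.48 to 0.50 (adjusted p = 0.986, limma). Log2 of Vegfa over Serpinf1, the balance of a vessel growth factor and an inhibitor, was taken with 0.5 added to the FPKM of both genes. Because Serpinf1 is scarce, this lowers the ratio. It was 5.30, 5.75 and 5.74 in controls 1, 2 and 3, against 5.20, 5.51 and 5.55 in diabetic 1, 2 and 3. The difference of -0.18 was within the spread (p = 0.5, exact permutation test, two-sided; 0.6 adjusted over 3 ratios), and was -0.33 without control 1, -0.10 without control 2, -0.11 without control 3, -0.069 without diabetic 1 and -0.31 with the length trend removed.

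The diabetic libraries did not form a uniform group in these genes, and neither did the controls. The ratio of highest to lowest library was larger in the controls for Vegfa, Angpt2 (1.5 against 1.33) and Serpinf1 (1.59 against 1.38). In the other members it was larger in the diabetic group. How this compares with all genes was not tested. Diabetic 1 was the lowest diabetic library in Hif1a, Epas1, Vegfa, Vegfb, Pgf, Angptl4 and Angpt2 and the highest in Vegfc, Adm and Serpinf1. Against the control mean on the log2(FPKM + 0.5) scale, Pgf was at -0.04, 0.40 and 0.55 and Epas1 at 0.02, 0.33 and 0.43 in diabetic 1, 2 and 3. Vegfa, at -0.18, -0.16 and -0.17, was alike in all 3. Its coefficient of variation there, 0.614%, was under the 1.38% that the fragments alone give, so the rank of diabetic 1 in Vegfa is not read. Of the diabetic libraries, diabetic 1 also had the highest sums of pigment epithelium genes, mostly Ttr, and of corneal genes. It had the lowest sums of endothelial genes and of lens genes. Without it the log2 differences were 0.38 for Epas1 (adjusted p = 0.230), 0.31 for Angptl4 (adjusted p = 0.556) and 0.17 for Hif1a (adjusted p = 0.371) by limma, so that 0 of the members passed there too.

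**Figure D2:**
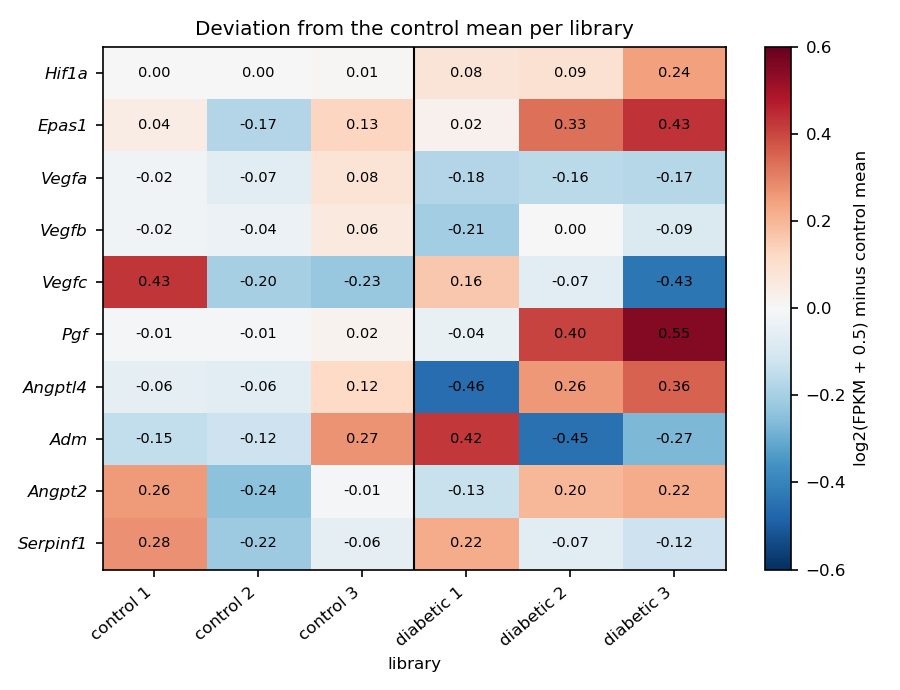
Each cell gives log2(FPKM + 0.5) of a gene in a library minus its mean over the 3 control libraries, red for higher and blue for lower. In diabetic 1, Pgf (-0.04), Epas1 (0.02) and Angptl4 (-0.46) lie near or under the control mean, whereas diabetic 2 and 3 lie above it.

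Gene length and scaling moved the members by amounts of the size of their differences. Among tested genes of 3847 to 5082 nt, to which Hif1a (3985 nt) and Epas1 (4898 nt) belong, the median log2 difference was 0.08. In genes of 3089 to 3847 nt, with Vegfa (3546 nt), it was 0.05, and in those of 1378 to 1734 nt, with Pgf (1561 nt) and Serpinf1 (1548 nt), it was -0.10. Vegfa, Pgf, Angpt2, Angptl4 and Serpinf1 lay on the opposite side of 0 from the median of genes of their length. Hif1a, Epas1 and Vegfb lay on the same side. The part of gene length in these differences was not tested. Over the alternatives the adjusted p of Vegfa ranged from 0.167 to 0.905, that of Hif1a from 0.111 to 0.679 and that of Epas1 from 0.160 to 0.587. With TPM, under quantile normalization and by voom, Hif1a and Epas1 had an unadjusted p below 0.05 and Vegfa did not. With TPM and by voom this p includes the shift of all genes, whose median was 0.13 with TPM and 0.05 by voom.

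**Figure D3:**
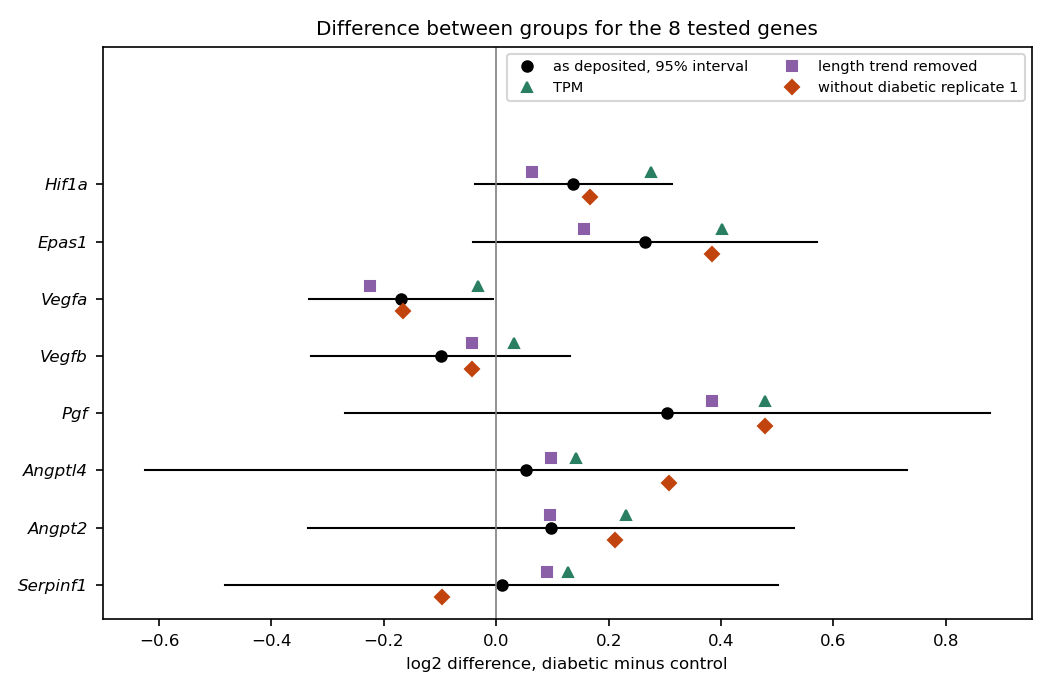
Log2 difference, diabetic minus control, of the 8 tested genes, with the 95% interval as a line, beside those from TPM, from length-corrected values and without diabetic replicate 1. The interval of Vegfa (-0.33 to -0.01) is the only one that does not reach 0, and its value with TPM is -0.03, where all genes have a median of 0.13.

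Among the receptors of these ligands 0 genes passed the adjusted threshold (limma). Kdr, the main signalling receptor of VEGF, was at 48.5, 45.2 and 53.8 FPKM in the controls and 63.4, 42.4 and 44.5 FPKM in the diabetic rats, with diabetic 1 the highest and the log2 difference at 0.01 (adjusted p = 0.986, limma). It was -0.17 without diabetic 1 and -0.15 with the length trend removed. In every library Kdr alone exceeded the summed FPKM of the 7 endothelial genes. Flt1, which binds VEGF tightly and can act as a decoy, was at 2.45 ± 0.707 and 2.52 ± 0.492 FPKM (SD, n = 3 each), and Tek at 0.943 ± 0.403 and 0.818 ± 0.0261 FPKM. Of 4 tested VEGF receptor and coreceptor genes, all had differences between 0.01 and 0.18, though 3 were negative with the length trend removed, where the median was -0.12, and 2 after quantile normalization. Of the 4, 0 had an unadjusted p below 0.05. Among adrenomedullin receptor genes, Calcrl, the receptor core, was at 1.57, 1.51 and 1.20 FPKM in the controls and 1.72, 2.45 and 1.84 FPKM in the diabetic rats, higher in every diabetic library (log2 difference 0.37, adjusted p = 0.324, limma) and at 0.25 without diabetic 2. Its partner Ramp2 was at 1.12 ± 0.0667 and 0.904 ± 0.217 FPKM (SD, n = 3 each). Ackr3, a scavenger receptor for chemokines and adrenomedullin, was at 9.73, 10.9 and 7.45 FPKM in the controls and 7.35, 7.41 and 5.69 FPKM in the diabetic rats, with a log2 difference of -0.42 (adjusted p = 0.230, limma). Pnpla2, which encodes a PEDF-binding lipase, and Gpihbp1, the anchor of lipoprotein lipase, were listed at 0 in all 6 libraries, which is not read here as absence of expression. Lrp6, a Wnt coreceptor that PEDF binds, had a log2 difference of 0.49 (0.36 with the length trend removed), and Plxdc2 0.44, without passing (adjusted p = 0.163 and 0.230, limma). All 3 tested PEDF receptor genes were positive, and these 2 had an unadjusted p below 0.05, where 9.15% of all genes were higher.

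Genes that low oxygen is known to induce lay on both sides of 0. Of 18 tested genes outside glycolysis, 11 had a positive and 7 a negative log2 difference, with a median of 0.10 against 0.00 over all genes, and 2 higher and 3 lower at an unadjusted p below 0.05, where 9.15% of all genes were higher and 10.7% lower. Vldlr, the very low density lipoprotein receptor gene, was at 28.1, 28.2 and 30.0 FPKM in controls 1, 2 and 3, against 43.1, 38.4 and 48.3 FPKM in diabetic 1, 2 and 3. Every diabetic library exceeded every control, with a log2 difference of 0.57 and a standard error of 0.10 (unadjusted p = 5.49e-04, adjusted p = 0.127, limma). It was between 0.49 and 0.65 when 1 library was left out and 0.52 with the length trend removed. The histone demethylase gene Kdm3a had 0.23, while the stress-induced mTOR inhibitor gene Ddit4 had -0.22, the mitochondrial gene Higd1a -0.27 and the transferrin receptor gene Tfrc -0.27. Slc2a1, the main glucose transporter of the blood-retina barrier, was between 53.9 and 55.8 FPKM in the controls and between 55.8 and 58.0 FPKM in the diabetic rats, and Bnip3, a mitophagy receptor gene, had -0.25 with overlap. With TPM this list had 8 higher and 0 lower at that p, where 18.4% of all genes were higher and 4.23% lower, and a median of 0.23, or 0.10 relative to all genes. Under quantile normalization it had 5 higher and 1 lower, a median of 0.12 and Ddit4 at -0.084, and Kdm3a was at 0.14 with the length trend removed.

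In the glycolytic list 10 of 12 tested genes had a negative difference, with a median of -0.14 and 0 higher and 4 lower at an unadjusted p below 0.05, where 10.7% of all genes were lower. These were Eno1 (-0.44), Aldoa (-0.37), Pgk1 (-0.31) and Ldha (-0.30), enzymes from the aldolase step to lactate, none of which passed over all genes. The median with TPM was 0.00, or -0.13 relative to all genes. It was -0.01 under quantile normalization, where 0 genes had such a p and Ldha was at -0.023, Pgk1 at -0.10, Aldoa at -0.13 and Eno1 at -0.18. Several glycolytic enzymes have near-identical pseudogenes, and the handling of shared reads is unstated, so these values are uncertain. Ldha, the lactate dehydrogenase gene, was at 1117 ± 84.6 FPKM in the controls and 905.5 ± 78.8 FPKM in the diabetic rats (SD, n = 3 each). Among other inhibitors of vessel growth, Vash1, which encodes vasohibin, was at 9.86, 11.6 and 14.4 FPKM in the controls and 14.9, 15.4 and 18.1 FPKM in the diabetic rats, with a log2 difference of 0.43 (adjusted p = 0.191, limma). Of the 4 tested genes of that list 3 were positive and 1 negative, with a median of 0.18. Vash1 was the 1 gene with an unadjusted p below 0.05, where 9.15% of all genes were higher. Over all 9 lists, 15 of 60 tested genes, or 25.0%, had an unadjusted p below 0.05, with 6 higher and 9 lower, against the 19.9% of all genes, and 0 passed the adjusted threshold. The count of 15 was 8 without control 1, 8 without control 2 and 9 without diabetic 2.

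**Figure D4:**
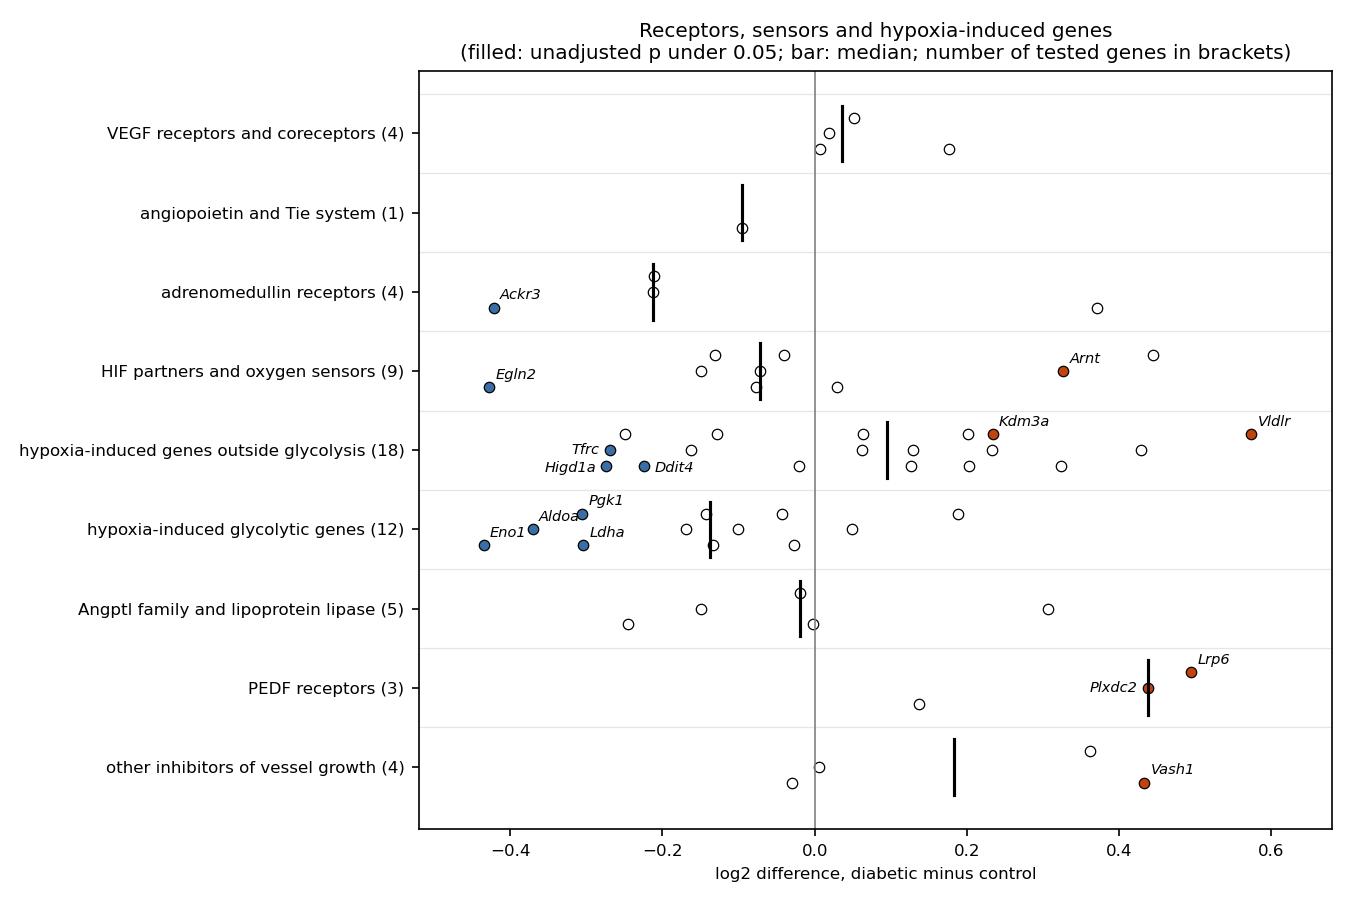
Log2 difference, diabetic minus control, of the 60 tested genes of the 9 lists, 1 circle per gene, filled where the unadjusted p was below 0.05, with the median of each list as a bar. Genes induced by low oxygen lie on both sides of 0, from Eno1 at -0.44 to Vldlr at 0.57.

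The genes whose pattern over the 6 libraries was most like that of Vegfa, by Pearson correlation of log2(FPKM + 0.5) among the 9805 genes averaging 5 FPKM or more, were Cbx6 (r = 0.999), Porcn (r = 0.992) and Kcne2 (r = 0.988). In 133 of these genes r was above 0.9, and all points share the 6 libraries and their scaling. Cbx6, a Polycomb group gene, was at 51.7, 50.7 and 53.9 FPKM in the controls and 48.9, 49.2 and 48.9 FPKM in the diabetic rats, the same order as Vegfa with a smaller range.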

How the data were processed

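Poly-A RNA of 6 retinas was sequenced as read pairs with a kit for which no strand marking is named, per the labels' protocols. The aligner, per the submitters' processing notes, was HISAT2 2.0.5, and counter, build and annotation were not given in the sources used here. Per gene, the authors deposited FPKM values with gene length and coordinates, per the file headers. Multiplied by gene length, the FPKM of a library fell on multiples of 1 step (100% of values within 0.05 of a whole number), which gave the fragments. Libraries of a group differed beyond sampling noise in each pair (lowest chi-square 10.04 for each degree of freedom).

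Genes averaging 0.5 FPKM or more entered limma 3.58.1 (R 4.3.3) as log2(FPKM + 0.5), in a two-sided fit on group alone with trended eBayes, adjusted by Benjamini-Hochberg over all 16363 genes. Ratios within a library were taken between values of FPKM + 0.5 and had exact permutation tests. The functions were checked on simulated data. The members and lists were chosen with earlier results of these data known. Named genes are all members, up to 4 genes per list without overlap and of smallest unadjusted p below 0.05, and Flt1, Kdr, Tek, Angpt1, Arnt, Egln3, Calcrl, Ramp2 and Pnpla2; the 3 genes most like Vegfa follow the same rule. The marker genes, Egln1, Slc2a1, Bnip3, Higd1a, Gpihbp1 and Mcph1 were named after their values were seen. Sequences are from RefSeq (GRCr8). Alternatives were pseudocounts of 0.1 and 1, other filters, TPM, quantile normalization, other limma settings, voom, protein-coding genes, removal of the length trend, a replicate block and leaving out each library.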

Additional observations from a re-analysis of the deposited data

How the results depend on the processing

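The count of 0 members past an adjusted p of 0.05 held in all 18 alternatives. Over all genes the count of 0 became 2 with voom and was between 0 and 4 when 1 library was left out. The 1 member at an unadjusted p below 0.05 became 2 with TPM, quantile normalization and voom (Hif1a and Epas1) and 0 without the trend, with robust eBayes, with the replicate block, and without control 1, control 3, diabetic 2 or diabetic 3. Without diabetic 1 it was 1, Epas1 in place of Vegfa. All genes at that p were 2066 without diabetic 2, against 3255. Same-numbered libraries did not deviate together (correlations of -0.05, -0.08 and 0.00 over genes), so the numbers pair nothing; with the number as a replicate block 2790 genes had an unadjusted p below 0.05 and 0 passed.

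Vegfb was at 0.032 with TPM, where all genes have a median of 0.13, and did not turn relative to it (-0.098). Some signs turned: under quantile normalization Angptl4 to -0.033, Serpinf1 to -0.062 and Flt1 to -0.022. With the length trend removed Flt1 was at -0.12 and Kdr at -0.15. When 1 library was left out, Angpt2 ranged from -0.025 to 0.22, Angptl4 from -0.099 to 0.31, Serpinf1 from -0.099 to 0.15, Flt1 from -0.16 to 0.19, Kdr from -0.17 to 0.11, Tek from -0.24 to 0.12, Egln3 from -0.31 to 0.085 and the ratio of Angpt2 to Angpt1 from -0.073 to 0.43. The cause was not tested. The ratio with Angpt1 had no value with the length trend removed, since Angpt1 was not tested. Vegfc and Adm had 1 to 23 fragments per library. The coefficient of variation of Vegfc was above counting error, at 65.0% against 35.4% in control and 55.1% against 34.0% in diabetic libraries. That of Adm was 112% against 68.6% in diabetic libraries and near counting error in control, at 51.3% against 49.2%.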

Other observations

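The spread between libraries was under the counting error in some groups. Across the 3 control libraries the coefficient of variation of Hif1a was 0.290%, where the fragments alone give 1.13%, and that of Pgf was 2.36% against 29.6%. The control libraries were also under it for Vegfb (3.77% against 6.7%) and Angptl4 (13.5% against 26.1%). In the diabetic libraries that of Vegfa was 0.614% against 1.38%. The closeness of these values is thus tighter than repeated counting of the same RNA would give on average, and an SD over 3 such libraries understates the error of the mean. In the other group of each gene the spread was above the counting error, at 6.60% for Hif1a, 33.1% for Pgf, 5.38% for Vegfa, 7.66% for Vegfb and 49.6% for Angptl4. How often a spread under the counting error occurs over all genes was not tested.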
